A study of Mus musculus with 4 samples.

Results

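The scavenger and folate receptors of mouse synovial myeloid cells were examined as 7 genes of the 32285 counted in each cell: Cd163, Msr1, Marco, Cd36, Lyve1, Folr2 and Siglec1. The genes were chosen by name, with earlier results of these data known. Of the 92 antibodies of the panel, 5 bind their products (CD163, CD204_Msr1, CD36, FrB and CD169_Siglec-1). Marco and Lyve1 had no antibody. On mouse build GRCm38.p6 the genes lie at chr1:120474538-120505024 (Marco), chr2:131067801-131086778 (Siglec1), chr5:17781690-17888959 (Cd36), chr6:124304636-124330529 (Cd163), chr7:101839988-101857190 (Folr2), chr7:110850607-110862953 (Lyve1) and chr8:39543232-39642750 (Msr1). The cells came from the ankle synovium of bone marrow chimeras, in which CD45.1 C57BL/6 marrow was given to CD45.2 C57BL/6 recipients whose ankles were shielded from the radiation, so a CD45.1 cell in the joint is of donor and a CD45.2 cell of recipient origin. Whether a CD45.2 cell was in the joint or in surviving recipient marrow at the time of transfer cannot be told apart by this label. RNA and antibody barcodes were counted in the same cells (CITE-seq) after a sort for live CD45+ CD11b+ cells negative for Ly6C, Ly6G, CD64, CD177, SiglecF and MHC class II. Arthritis was induced by serum of K/BxN mice, whose antibodies cause a joint inflammation that later resolves. There was 1 library for each of 4 stages: baseline on day 0 without serum, peak on day 7, plateau on day 14 and resolution on day 56. The titles of the 3 arthritis samples also carry the tag "Clo-lip", which is explained nowhere else in the labels; whatever it stands for cannot be told apart from arthritis stage. The number and age of the mice in each library are not given in the sources used here.

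Scavenger receptors bind modified lipoproteins, dying cells, microbes and plasma proteins and carry them into the cell, and tissue macrophages are the cells best known for them. CD163 takes up complexes of haemoglobin and haptoglobin, the macrophage scavenger receptor CD204 (Msr1) and MARCO are class A receptors for polyanions such as oxidised lipoprotein, and CD36 is a class B receptor for fatty acids, oxidised lipoprotein and thrombospondin. LYVE-1 binds hyaluronan, folate receptor beta (FrB, gene Folr2) binds folate, and sialoadhesin (CD169, gene Siglec1) binds sialic acid and is induced by interferon. In joints, LYVE-1, CD163 and folate receptor beta are widely used as markers of resident macrophages of the synovial tissue.

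The antibodies were read through barcodes of 15 bases, shown here because every antibody value below is a count of one of them. Each barcode is written in capitals throughout, since all of its bases are read, and each differed from the nearest other barcode of the panel by at least 5 bases.
CD163: GAGCAAGATTAAGAC
CD204_Msr1: AGCTAGACACGTTGT
CD36: TTTGCCGCTACGACA
FrB: CTCAGATGCCCTTTA
CD169_Siglec-1: ATTGACGACAGTCAT

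After removal of barcodes with fewer than 300 genes or more than 10% mitochondrial UMIs there were 1071 cells at baseline, 5941 at peak, 2828 at plateau and 4611 at resolution. Median depth per cell lay between 4912 and 8250 gene UMIs and between 365 and 970 antibody UMIs, and was lowest at resolution for both. Cells were assigned to the CD45.1 donor or the CD45.2 recipient by their 2 CD45 antibodies, with a log2 ratio of at least 1 or at most -1. This gave 808, 5576, 2402 and 3249 CD45.1 cells at baseline, peak, plateau and resolution, against 190, 219, 239 and 730 CD45.2 cells, and the other 73, 146, 187 and 632 cells were in neither group. Clusters led by MHC class II genes, of classical monocyte-like and of fibroblast-like cells were present although the sort was meant to remove cells of these kinds. The libraries shared between 7 and 19 barcodes each with others. RNA levels are UMIs per 1000000 gene UMIs (CPM) of the summed cells, and antibody levels are UMIs per 10000 antibody UMIs of the summed cells. Intervals are exact Poisson intervals for levels and exact binomial intervals for shares of cells, both at 95%, and they cover counting error only.

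CD45.2 cells held most of the Lyve1 and Folr2 UMIs of every library, and most of the Cd163 UMIs at baseline, peak and plateau, although they were a small part of the cells. Of 5 member genes with enough counts for the test, 4 were lower in CD45.1 than in CD45.2 cells and none was higher, where 19.8% of all 11498 genes tested were called, 9.95% as higher in CD45.1 cells and 9.85% as higher in CD45.2 cells. The calls come from edgeR's quasi-likelihood test on sums per library and variant, with the library as a block and Benjamini-Hochberg adjusted p-values over all genes tested, at an adjusted p of 0.05. The 4 libraries are the 4 stages, so the test asks for a difference that the stages share. Marco and Siglec1 did not pass the filter on low counts. The members were chosen with earlier results of these data known, so the share over all genes is not a blind comparison. Without the library as block, Folr2 kept its call (adjusted p = 0.046) and Lyve1, Cd163 and Cd36 lost theirs (0.151, 0.26 and 0.223 by the same edgeR test).

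Lyve1, the hyaluronan receptor, had 25.1, 0.753, 1.58 and 138 CPM in CD45.1 cells at baseline, peak, plateau and resolution, against 1996.5, 187, 165 and 1389.9 CPM in CD45.2 cells. The values of the variants did not overlap, and even the highest CD45.1 level, at resolution, was below the lowest CD45.2 level, at plateau. Its log2 fold change in CD45.1 over CD45.2 cells was -5.86 ± 0.79 (SE, 4 libraries, edgeR adjusted p = 0.00549). CD45.2 cells were 17.7%, 3.69%, 8.45% and 15.8% of the cells at the 4 stages and held 93.4%, 88.3%, 88.2% and 63.4% of the Lyve1 UMIs. The Lyve1 level in CD45.2 cells was 79.5 times that in CD45.1 cells at baseline (95% interval 69.6 to 91.1), and 10.1 times at resolution (9.65 to 10.6).

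Folr2, which encodes folate receptor beta, had 7.62, 3.75, 14.0 and 53.4 CPM in CD45.1 cells, against 679.6, 128, 146 and 429.6 CPM in CD45.2 cells, in the same order of stages. Again no CD45.1 value reached the lowest CD45.2 value. The log2 fold change was -4.21 ± 0.59 (SE, edgeR adjusted p = 0.0059). Its level was 89.2 times as high in CD45.2 as in CD45.1 cells at baseline (70.2 to 115) and 8.05 times as high at resolution (7.46 to 8.69).

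Cd163, the haemoglobin scavenger receptor, had 10.4, 1.96, 1.26 and 60.0 CPM in CD45.1 cells, against 145, 73.5, 22.9 and 151 CPM in CD45.2 cells. CD45.1 cells were lower within every library, while their level at resolution exceeded the CD45.2 level at plateau. The log2 fold change was -3.39 ± 0.62 (SE, edgeR adjusted p = 0.0132). At resolution 59.2% of Cd163 UMIs were in CD45.1 cells, against 26.7%, 28.5% and 27.2% at baseline, peak and plateau.

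Cd36, the fatty acid and lipoprotein receptor, had 98.7, 32.2, 95.6 and 267 CPM in CD45.1 cells, against 494, 149.9, 169 and 692 CPM in CD45.2 cells. It was lower in CD45.1 cells within every library, and the variants overlapped across stages. The log2 fold change, -1.47 ± 0.25 (SE, edgeR adjusted p = 0.0105), was nearer to 0 than those of Lyve1, Folr2 and Cd163.

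Msr1, the class A scavenger receptor, gave no call between the variants. It had 47.8, 165, 118 and 39.1 CPM in CD45.1 cells, against 68.5, 85.6, 90.8 and 60.4 CPM in CD45.2 cells. CD45.1 cells were thus higher at peak and plateau and lower at baseline and resolution, and the log2 fold change over the 4 libraries was 0.27 ± 0.30 (SE, edgeR adjusted p = 0.552). Siglec1 was near the limit of detection, with 18, 158, 22 and 8 UMIs in CD45.1 cells, against 1, 8, 2 and 2 UMIs in CD45.2 cells. Its levels were 1.93, 2.98, 0.893 and 0.411 CPM in CD45.1 cells, against 0.548, 2.31, 0.580 and 0.438 CPM in CD45.2 cells, with overlapping intervals in every library. Marco, a receptor of alveolar and marginal zone macrophages, had no UMI in any of the 14451 cells, which allows up to 0.251, 0.0511, 0.101 and 0.111 CPM at baseline, peak, plateau and resolution.

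**Figure D1:**
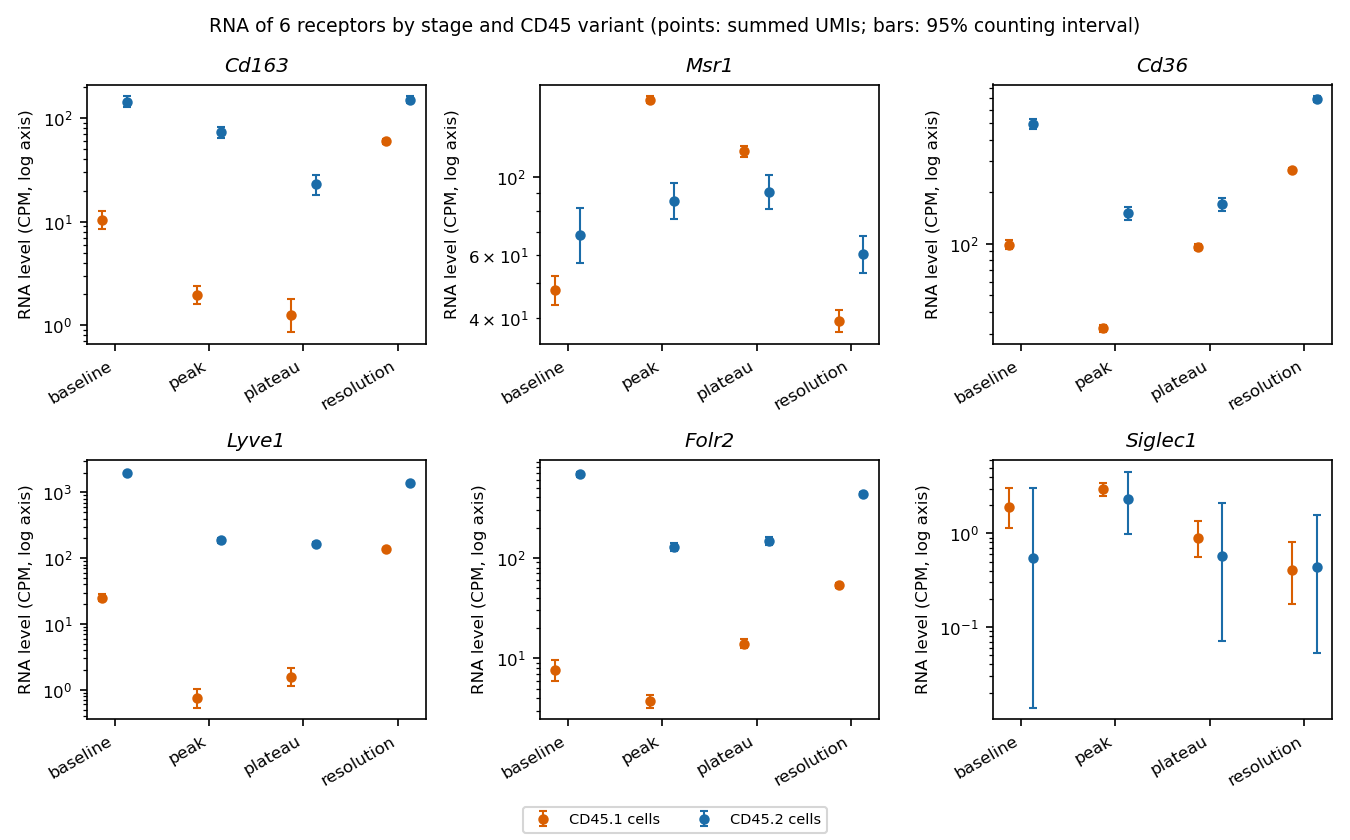
RNA level (CPM, log axis) of the 6 detected receptor genes at the 4 stages in CD45.1 cells (orange) and CD45.2 cells (blue), with points for the summed UMIs of 1 library and bars for the 95% counting interval. Cd163, Cd36, Lyve1 and Folr2 lie lower in CD45.1 cells at every stage, whereas the Msr1 points cross, with CD45.1 cells higher at peak and plateau.

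Markers of other cells differed between the variants as well. The 14 macrophage markers summed to between 1613 and 5659 CPM in CD45.1 cells, against 3924 to 20040.0 CPM in CD45.2 cells, with every marker detected in every sum. The 8 fibroblast markers summed to between 959 and 2754 CPM in CD45.1 cells, against 3388 to 11370.1 CPM in CD45.2 cells. The 8 mast cell markers summed to 35.4, 33.2, 6.66 and 4.73 CPM in CD45.1 cells at the 4 stages, against 757, 1804, 113 and 347 CPM in CD45.2 cells. The 11 osteoclast markers at peak summed to 4406 CPM in CD45.1 cells, against 19266 CPM in CD45.2 cells, and the 11 nonclassical monocyte markers at baseline to 2654 CPM, against 607 CPM. Their part in the differences between the variants was not tested. Lyve1 is also a marker of lymphatic vessels, Cd36 of platelets and fat cells, and the markers of those cells were low. The lymphatic markers Prox1, Ccl21a, Flt4, Mmrn1 and Reln had no UMI in CD45.2 cells at baseline and at peak, and Pdpn, which macrophages and fibroblasts also express, made up the whole list sum of 44.4 and 79.5 CPM there. At resolution all 6 lymphatic markers had a UMI in CD45.2 cells and summed to 113 CPM. The 7 platelet markers summed to at most 4.38 CPM and the 5 adipocyte markers to at most 7.55 CPM in any library and variant.

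The antibodies gave the same direction as RNA for CD163 and folate receptor beta. All 5 member antibodies were called, 4 lower and 1 higher in CD45.1 than in CD45.2 cells, against 17.6% of the 85 antibodies tested that were called in either direction (10.6% higher in CD45.1 cells and 7.06% higher in CD45.2 cells). The 2 CD45 antibodies that set the variant were left out of this test. The member antibodies follow from the member genes, which were chosen with earlier results of these data known. CD163 antibody stood at 57.0, 95.8, 51.9 and 219 per 10000 in CD45.1 cells at baseline, peak, plateau and resolution, against 1669, 1817, 849.5 and 1574 per 10000 in CD45.2 cells. No CD45.1 value came near the CD45.2 values, and the log2 fold change was -3.63 ± 0.38 (SE, edgeR adjusted p = 0.00212). In CD45.2 cells 16.7% of all antibody UMIs at baseline were CD163, which lowers the share left for every other antibody there. Without CD163 in the totals, a setting added after the data were seen, 14 antibodies were called.

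FrB antibody stood at 20.3, 26.1, 41.4 and 83.5 per 10000 in CD45.1 cells, against 555, 423, 412 and 447 per 10000 in CD45.2 cells, a log2 fold change of -3.26 ± 0.38 (SE, edgeR adjusted p = 0.00253). The level in CD45.1 cells was higher at each later stage, while that in CD45.2 cells stayed within a narrow range. The median antibody of the panel was also higher in CD45.1 cells at resolution than at baseline, by 1.54 on the log2 scale, against 2.04 for FrB. At peak over baseline that median was 0.90 in CD45.1 cells, above the 0.36 of FrB.

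CD204_Msr1 and CD169_Siglec-1 were low throughout. CD204_Msr1 had 1.04, 17.0, 4.69 and 6.86 per 10000 in CD45.1 cells, against 5.42, 39.2, 11.1 and 9.73 in CD45.2 cells (log2 fold change -0.95 ± 0.22 SE, edgeR adjusted p = 0.0329). At peak and plateau Msr1 RNA went the other way, 1.93 and 1.30 times as high in CD45.1 as in CD45.2 cells. At baseline and resolution RNA and antibody were both lower in CD45.1 cells. CD169_Siglec-1 had 1.21, 6.30, 2.95 and 4.70 per 10000 in CD45.1 cells, against 10.95, 29.2, 7.90 and 6.06 in CD45.2 cells (log2 fold change -1.43 ± 0.32 SE, edgeR adjusted p = 0.0329). The median cell of either variant held 0 or 1 UMI of these antibodies in every library. Leaving out the baseline or the plateau library ended both calls, with edgeR adjusted p-values between 0.0563 and 0.104. Lymphocyte antibodies, whose targets these myeloid cells should lack, had 6.88, 2.91, 2.39 and 8.78 per 10000 (CD3) and 5.79, 5.46, 5.73 and 41.6 per 10000 (CD8a) over all cells at the 4 stages. In CD45.2 cells at peak, where CD204_Msr1 and CD169_Siglec-1 were highest, CD3 had 2.89 and CD8a 8.22 per 10000. At resolution CD8a had 37.7 per 10000 in CD45.1 and 41.9 in CD45.2 cells, above both member antibodies. Both lymphocyte antibodies were also lower in CD45.1 than in CD45.2 cells in every library. CD3 had 6.16, 2.60, 2.13 and 7.24 per 10000 in CD45.1 cells, against 10.7, 2.89, 2.45 and 9.01 in CD45.2 cells. CD8a had 4.26, 4.90, 5.05 and 37.7, against 12.8, 8.22, 6.89 and 41.9. The part of such a background in the calls of CD204_Msr1 and CD169_Siglec-1 was not tested.

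CD36 antibody went the other way from its RNA. It had 91.4, 14.8, 11.7 and 22.4 per 10000 in CD45.1 cells, against 13.8, 5.08, 3.27 and 12.4 in CD45.2 cells, a log2 fold change of 2.09 ± 0.52 (SE, edgeR adjusted p = 0.0397). CD45.1 cells were higher within each library, and the call was lost without the plateau library (log2 fold change 2.20, edgeR adjusted p = 0.0616). The CD8a antibody had 4.26, 4.90, 5.05 and 37.7 per 10000 in CD45.1 cells, against 12.8, 8.22, 6.89 and 41.9 in CD45.2 cells. CD36 lay below CD8a in CD45.2 cells from peak on and in CD45.1 cells at resolution, and above it elsewhere. It lay above CD3 in every library and variant.

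**Figure D2:**
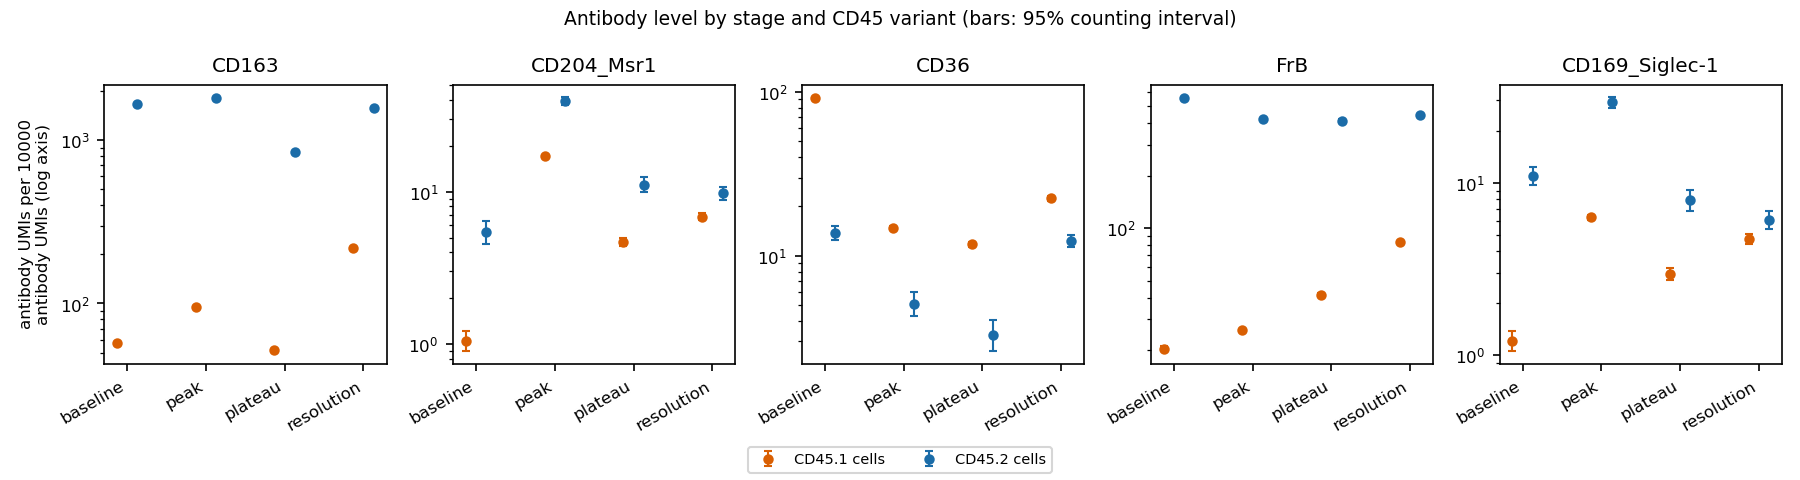
Antibody level (UMIs per 10000 antibody UMIs, log axis) of the 5 member antibodies at the 4 stages in CD45.1 cells (orange) and CD45.2 cells (blue), with bars for the 95% counting interval. CD163 and FrB lie far lower in CD45.1 cells, CD204_Msr1 and CD169_Siglec-1 lie lower by less, and CD36 lies higher in CD45.1 cells at every stage.

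The variants were also set against each other within macrophage-like cells. These were cluster 0 of 20 clusters made without the 7 member genes and without antibodies, and all 14 macrophage markers marked it. The cluster held 27, 14, 48 and 848 CD45.1 cells at baseline, peak, plateau and resolution, against 152, 62, 74 and 498 CD45.2 cells. In a finer clustering (Leiden resolution 1.2) one macrophage-like cluster, led by Vsig4 and Timd4, held 147 CD45.1 and 481 CD45.2 cells, and a second, led by Aqp1 and Fxyd2, held 750 CD45.1 and 288 CD45.2 cells. Over all libraries Lyve1 was at 2285 CPM in the Vsig4-led and 425 CPM in the Aqp1-led cluster, and Folr2 at 768 and 219.9 CPM. The part of this split in the differences between the variants was not tested. The same test over 3 libraries, without the peak library because it had fewer than 20 CD45.1 cells, called 4.03% of 7561 genes. Lyve1 (log2 fold change -2.47 ± 0.41, edgeR adjusted p = 0.000999), Folr2 (-1.92 ± 0.18, 1.58e-06) and Cd163 (-1.82 ± 0.44, 0.0221) were again called lower in CD45.1 cells. Within the baseline library, however, Cd163 was higher in CD45.1 cells, with overlapping intervals given below. Cd36 (-0.57 ± 0.28, 0.467) and Msr1 (-0.17 ± 0.23, 0.895) gave no call, and of 85 antibodies tested edgeR called 1, which was not a member. CD163 antibody (-2.53 ± 0.97, edgeR adjusted p = 0.453) had an unadjusted p of 0.0342, and FrB (-0.95 ± 0.52, 0.529), CD169_Siglec-1 (-0.26 ± 0.38, 0.962), CD204_Msr1 (-0.02 ± 0.33, 0.991) and CD36 (-0.06 ± 0.38, 0.991) had unadjusted p-values above 0.05.

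The macrophage-like CD45.1 cells differed between early and late libraries. Cd163 RNA in them was 241, 310 and 31.3 CPM at baseline, peak and plateau and 20.7 CPM at resolution, against 188, 529, 174 and 194 CPM in macrophage-like CD45.2 cells. The intervals of the variants overlapped at baseline (184 to 311 CPM, against 166 to 212) and lay apart at resolution (16.8 to 25.3 CPM, against 179 to 210.2). CD163 antibody gave the same order of the variants within each library, but not the same order of the stages. It had 2220, 2069, 264 and 171 per 10000 in CD45.1 cells at baseline, peak, plateau and resolution. In CD45.2 cells it had 1954, 3779, 2076 and 2003 per 10000. Median CD163 UMIs per macrophage-like cell were 117, 27, 1 and 1 in CD45.1 cells, against 70.5, 61.5, 49.5 and 8.5 in CD45.2 cells. With 27 and 14 CD45.1 cells at the 2 early stages and 1 library a stage, these values are a description. Cells in which both CD45 antibodies reached 10 UMIs numbered 46, 127, 46 and 22 at the 4 stages. Whether the early macrophage-like CD45.1 cells were among them was not tested. Leaving such cells out over all cell groups gave edgeR log2 fold changes of -3.36 for Cd163 RNA and -3.87 for CD163 antibody. Within macrophage-like cells they were not left out.

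Lyve1 and Folr2 were lower in macrophage-like CD45.1 cells at each stage. Lyve1 had 872, 94.7, 11.4 and 479.9 CPM in CD45.1 cells, against 2567, 1356, 1237 and 1813 CPM in CD45.2 cells. Folr2 had 241, 258, 134 and 195 CPM in CD45.1 cells, against 881, 702, 841 and 569 CPM in CD45.2 cells. FrB antibody was 739.8, 698, 277 and 285 per 10000 in CD45.1 cells, against 634, 652, 781 and 488 in CD45.2 cells, so that the variants changed order between peak and plateau.

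At resolution a second cell group carried Cd163. Cluster 1, led by Ccl17, Rnase2a, Mmp12, Mgl2 and Retnla, with 3 of the 14 macrophage markers, held 978 CD45.1 and 61 CD45.2 cells in that library and stayed unnamed. In it Cd163 had 126 CPM in CD45.1 cells, against 119 CPM in CD45.2 cells, with overlapping intervals (119 to 134, against 91.1 to 152). Lyve1 had 48.3 CPM in CD45.1 cells, against 1099 CPM in CD45.2 cells, and Folr2 had 9.79 CPM in CD45.1 cells, against 277 CPM in CD45.2 cells. Cluster 1 held 55.9% and the macrophage-like cells 39.2% of the Cd163 UMIs of the resolution library, whereas macrophage-like cells held 88.9% of its Lyve1 and 91.6% of its Folr2 UMIs. Nearly all of cluster 1 came from 1 library (1106 of 1179 cells), so it cannot be told apart from that library.

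**Figure D3:**
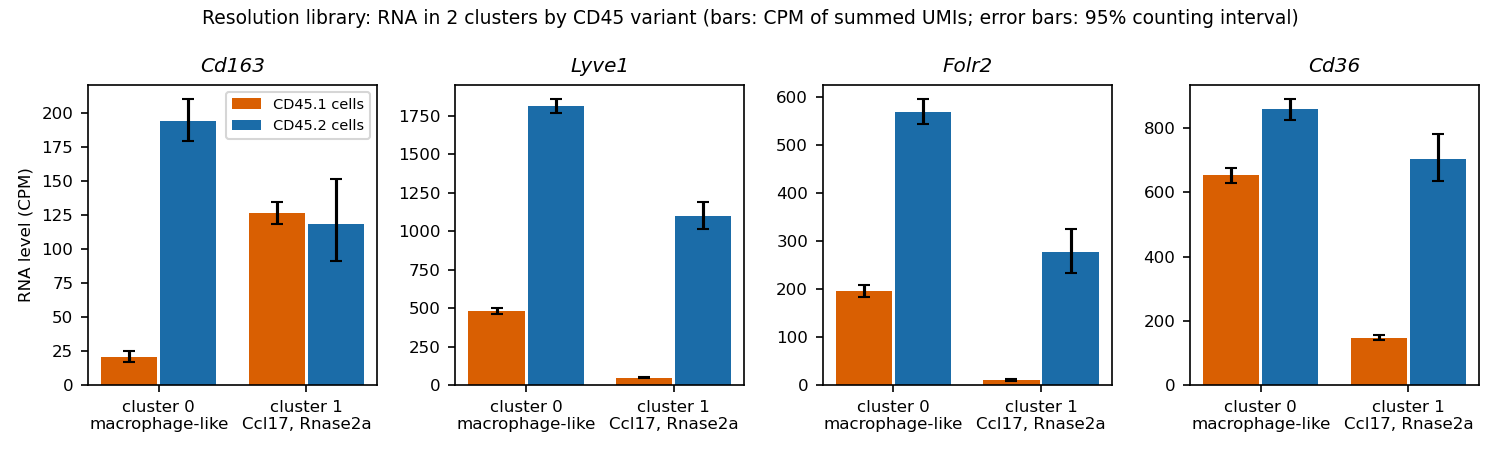
RNA level (CPM) of Cd163, Lyve1, Folr2 and Cd36 at resolution in macrophage-like cluster 0 and in cluster 1, for CD45.1 cells (orange) and CD45.2 cells (blue), with 95% counting intervals. In cluster 0 all 4 genes are lower in CD45.1 cells, and in cluster 1 Cd163 is alike in both variants (126 and 119 CPM) while Lyve1, Folr2 and Cd36 are lower in CD45.1 cells.

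Across the stages of arthritis, with 1 library each and so with no test, Lyve1, Folr2, Cd163 and Cd36 were low at peak and high again at resolution, whereas Msr1 was highest at peak. Between peak and baseline 4 of the 6 detected genes were at least 2-fold lower and 1 was at least 2-fold higher, where 12.6% and 8.52% of 13084 genes were. Lyve1 stood at 12.5 CPM at peak, against 326 CPM at baseline, 26.0-fold lower (24.0 to 28.2). Folr2 stood at 11.5 against 110.1 CPM (9.59-fold lower, 8.74 to 10.5), Cd163 at 6.22 against 30.4 CPM (4.88-fold lower, 4.21 to 5.66) and Cd36 at 39.4 against 155 CPM (3.93-fold lower, 3.69 to 4.18). Msr1 stood at 156 CPM at peak, against 49.7 CPM at baseline, 3.14-fold higher (2.89 to 3.42). The median log2 ratio of all genes between these libraries was -0.13. Baseline is the only library without the "Clo-lip" tag, so in any contrast with baseline arthritis and that tag cannot be told apart.

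Between plateau and peak, Cd36 (102 against 39.4 CPM, 2.58-fold) and Folr2 (29.5 against 11.5 CPM, 2.57-fold) were at least 2-fold higher, where 15.1% of 13501 genes were, and Siglec1 (0.845 against 2.91 CPM, 3.45-fold lower, 2.26 to 5.48) was at least 2-fold lower, where 5.07% were. All genes had a median log2 ratio of 0.30 in this contrast. Cd163 was 1.61-fold lower at plateau (3.85 against 6.22 CPM), Msr1 1.42-fold lower (109.8 against 156 CPM) and Lyve1 1.74-fold higher (21.8 against 12.5 CPM).

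At resolution 4 of the 6 genes were at least 2-fold higher than at plateau and 1 at least 2-fold lower, where 13.4% and 10.5% of 13291 genes were. Cd163 stood at 72.7 CPM at resolution, against 3.85 CPM at plateau, 18.9-fold higher (15.6 to 23.0). Lyve1 stood at 369 against 21.8 CPM (16.9-fold, 15.6 to 18.4), Folr2 at 125 against 29.5 CPM (4.25-fold, 3.95 to 4.59) and Cd36 at 339 against 102 CPM (3.34-fold, 3.204 to 3.48). Msr1 stood at 44.0 against 109.8 CPM, 2.50-fold lower (2.34 to 2.67). Against baseline, Cd163 (2.40-fold) and Cd36 (2.20-fold) were at least 2-fold higher at resolution, where 11.8% of 12658 genes were, and Siglec1 (0.443 against 1.67 CPM) was 3.78-fold lower, where 5.61% were. Lyve1 and Folr2 were each within 1.14-fold of their baseline level.

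The cells in which these levels arose were different at each stage. Macrophage-like cells (cluster 0) were 16.9%, 1.35%, 4.31% and 34.0% of the cells at baseline, peak, plateau and resolution. The shares at peak and plateau leave out cells that the finer clustering also named macrophage-like. The sum of the macrophage markers over all cells was 4415, 1945, 2640 and 7261 CPM. Within macrophage-like cells Cd163 had 195, 464, 112 and 86.8 CPM at the 4 stages, so that the peak was the highest and the directions between peak and baseline and between resolution and plateau were opposite to those over all cells. Cd36 stayed within 659.96 to 729 CPM, and Msr1 had 91.0, 189, 169 and 84.9 CPM. Lyve1 had 2299, 1109.7, 703 and 999 CPM and Folr2 had 782, 606, 533 and 349 CPM, both highest at baseline. In sums over all cells, fewer cells of a type and less RNA per cell cannot be told apart. Neutrophil markers also marked the baseline library, where all 12 summed to 41994 CPM, against 339.9 to 1670.0 CPM in the other libraries.

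The antibodies followed the stages differently. CD204_Msr1 had 1.57, 18.2, 5.41 and 7.85 per 10000 over all cells at baseline, peak, plateau and resolution, 11.6-fold higher at peak than at baseline. CD169_Siglec-1 had 2.41, 7.38, 3.57 and 5.27. At baseline both lay below the lymphocyte antibodies CD3 (6.88) and CD8a (5.79), so their folds over baseline start from a very low level. Between peak and baseline 2 of the 5 antibodies were at least 2-fold higher, where 40.2% of 87 antibodies were, and CD36 was 5.65-fold lower (14.4 against 81.3 per 10000), where 14.9% were at least 2-fold lower. Between plateau and peak CD204_Msr1 and CD169_Siglec-1 were 3.36-fold and 2.07-fold lower, where 9.2% of antibodies were at least 2-fold lower. CD163 had 257, 175, 137 and 507 per 10000, and its 3.71-fold higher level at resolution than at plateau was the only member value past 2-fold in that contrast, where 42.5% of antibodies were. As a ratio to the CD3 and CD8a antibodies, a setting added after the data were seen, CD163 was lower at resolution (log2 -0.74). FrB had 85.8, 45.0, 82.2 and 161 per 10000. The median antibody of the panel was higher at peak than at baseline by 0.53 and at resolution than at plateau by 0.92 on the log2 scale. At resolution, against baseline, CD204_Msr1 (4.99-fold) and CD169_Siglec-1 (2.18-fold) were higher, where 59.8% of antibodies were. CD169_Siglec-1 was lower at resolution both as that ratio and as mean UMIs per cell (log2 -0.87 each). CD36 was 3.75-fold lower (21.7 against 81.3 per 10000), where 5.75% were.

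Among clusters of at least 50 cells, Lyve1, Folr2, Cd163 and Cd36 were highest in macrophage-like cells over all libraries, and Msr1 and Siglec1 in other clusters. Lyve1 RNA was concentrated in macrophage-like cells, with 1164 CPM over all libraries and 703 to 2299 CPM by library, followed by cluster 1 with 117 CPM. Macrophage-like cells were 13.5% of the cells and held 91.3% of all Lyve1 UMIs. Folr2 was at 435 CPM in macrophage-like cells, followed by 49.0 CPM in cluster 6, which was led by Cav1, Spp1 and Arg1, and macrophage-like cells held 83.2% of its UMIs. Osteoclast-like cells, of the bone-resorbing lineage, had 14.1 CPM of Folr2 and held 15.9% and 21.6% of its UMIs at peak and plateau.

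Cd163 had almost the same level in macrophage-like cells and in cluster 1 (123 and 120.3 CPM), and their order changed with the library. Type 2 dendritic-like cells were next with 33.5 CPM, and every other cluster was below 10 CPM. Cd36 had 716 CPM in macrophage-like cells, 417 CPM in nonclassical monocyte-like cells and 360.2 CPM in cluster 6. The first of these levels varied little by library, while nonclassical monocyte-like cells had 434, 183, 338 and 421 CPM at baseline, peak, plateau and resolution, with only 22 and 11 cells at peak and plateau.

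Msr1 was highest outside the macrophage-like cells at peak and plateau. Over all libraries cluster 6 had 234 CPM, cluster 16, led by the chemokine genes Cxcl3 and Cxcl2, had 221 CPM, and the 2 clusters of classical monocyte-like cells had 206 and 205 CPM. These 4 lie close together, and by library cluster 6 had 221 CPM at peak and 252 CPM at plateau, while cluster 16 had 222 and 219.7 CPM at those stages. Macrophage-like cells had 189 and 169 CPM at peak and plateau. At baseline and resolution they had 91.0 and 84.9 CPM, above every other cluster with at least 20 cells there, the next being cluster 4 with 60.0 CPM at baseline and cluster 6 with 81.3 CPM from 57 cells at resolution. They held 63.5% of the Msr1 UMIs of the resolution library. Fibroblast-like cells had at most 9.52 CPM over all libraries. Siglec1 was below 10 CPM in every cluster over all libraries. Within macrophage-like cells it had 0.603, 17.9, 1.24 and 0.561 CPM at baseline, peak, plateau and resolution, from 1, 11, 1 and 5 UMIs, and CD169_Siglec-1 antibody had 11.1, 56.1, 13.1 and 7.25 per 10000, so that RNA and antibody were both highest at peak in these cells. Of all Siglec1 UMIs 37.7% were in cluster 5, led by H2-Aa and H2-Ab1, and 13.6% in cluster 14, the classical monocyte-like cells led by Cxcl10 and other interferon response genes, which were 3.76% of all cells.

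**Figure D4:**
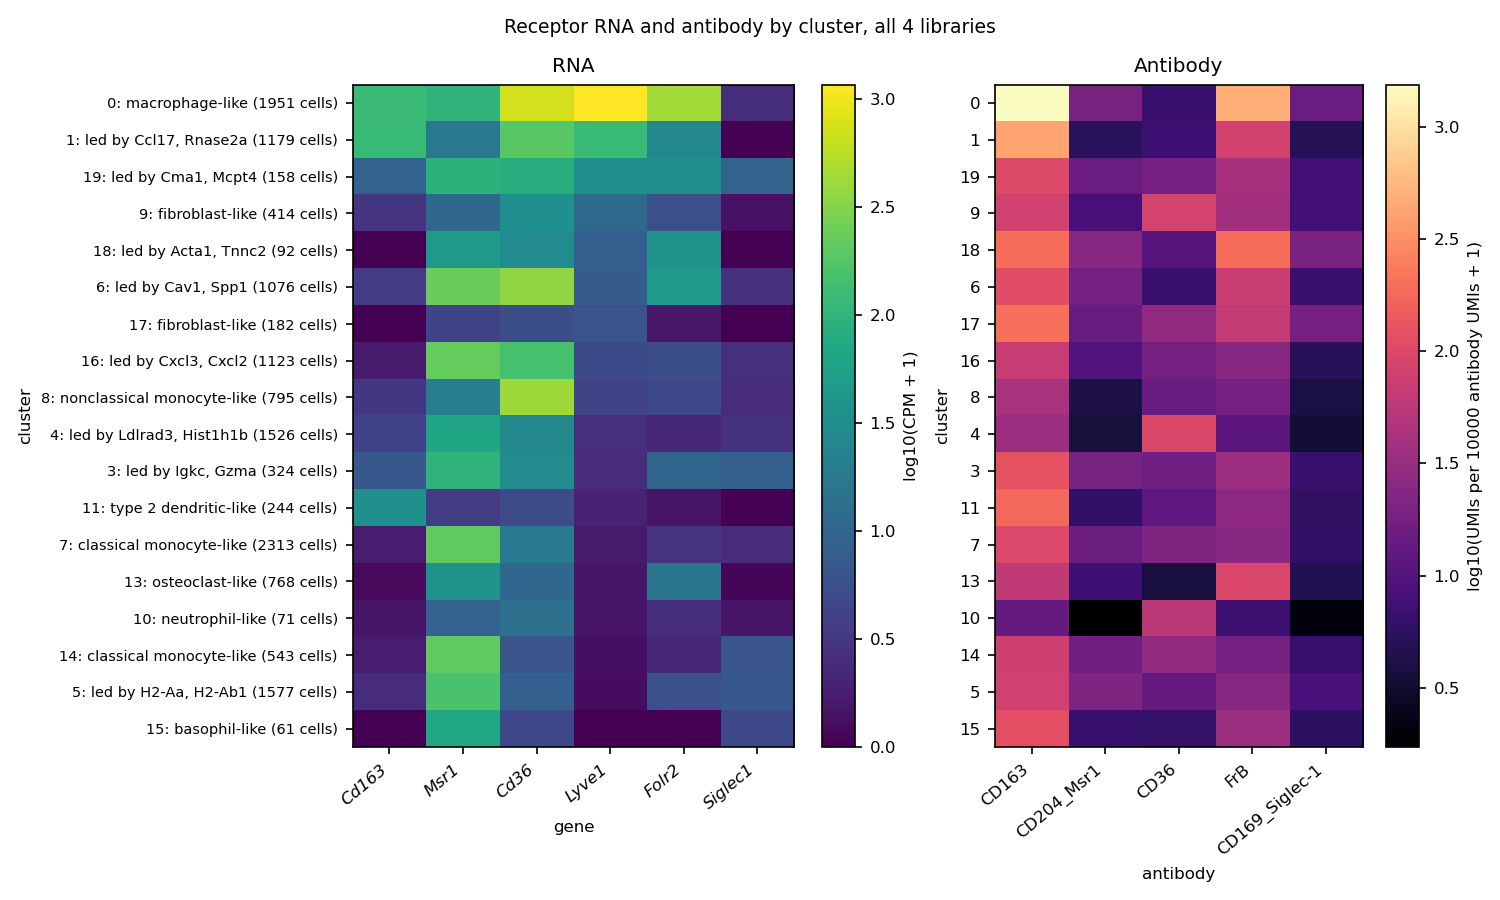
Left, RNA level of the 6 detected genes in each cluster of at least 50 cells over all 4 libraries, as log10(CPM + 1), and right, level of the 5 antibodies in the same clusters, as log10(UMIs per 10000 antibody UMIs + 1), with rows sorted by Lyve1. Lyve1 and Folr2 stand out in cluster 0, Cd163 in clusters 0 and 1, Msr1 in clusters 6, 7, 14 and 16, and CD36 antibody is highest in cluster 4, where Cd36 RNA is low.

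Cells that should lack these receptors gave levels for comparison, and the source of their UMIs was not tested. Neutrophil-like, basophil-like and mast-like cells together numbered 61 at baseline and 75 at peak. At baseline they had 8.10 CPM of Msr1, 13.7 CPM of Cd36, 1.87 CPM of Folr2, and 0.623 CPM each of Cd163, Lyve1 and Siglec1. The Folr2 level at baseline was 7.62 CPM in CD45.1 cells (5.95 to 9.61), against 1.87 CPM (0.385 to 5.46) in these cells, so the intervals lay apart. Folr2 had a UMI in 2.97% of CD45.1 cells, against 3.28% of these cells, but the median depths of 7708.5 and 24032 UMIs differ too much to compare the shares. At peak these cells had 43.3 CPM of Msr1, from 21 UMIs, and no UMI of Cd163, Lyve1 or Folr2, at an upper bound of 7.61 CPM each. The CD45.1 levels of these 3 genes at peak lay below that bound.

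The share of cells with a UMI followed the levels. At resolution Lyve1 was found in 11.7% of CD45.1 cells (10.6% to 12.9%), against 59.7% of CD45.2 cells (56.1% to 63.3%), and after thinning every cell to 2000 UMIs in 8.96% of CD45.1 cells, against 55.9% of CD45.2 cells. Thinning left out 368 CD45.1 and 82 CD45.2 cells that were shallower. Cd163 was found there in 13.9% of CD45.1 cells, against 29.7% of CD45.2 cells, or 7.36% against 19.0% after thinning. Msr1 at peak was found in 61.6% of CD45.1 cells, against 47.9% of CD45.2 cells, or 27.1% against 19.7% after thinning.

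Within cells, Lyve1 was found together with Folr2 and Cd163 at each stage, while the shares of cells with Msr1 differed less. Among cells thinned to 2000 UMIs, Folr2 had a UMI in 67.1%, 51.1%, 69.2% and 54.4% of cells with Lyve1 at baseline, peak, plateau and resolution, against 2.49%, 1.08%, 3.63% and 5.48% of cells without Lyve1. Lyve1 had a UMI in 69.4%, 26.1% and 36.5% of cells with Cd163 at baseline, plateau and resolution, against 11.9%, 1.38% and 15.4% of cells without. At peak only 30 cells had Cd163, and the share of them with Lyve1 had an interval of 14.7% to 49.4%, against 0.461% to 0.91% of cells without Cd163. Msr1 had a UMI in 15.8%, 26.7%, 28.2% and 14.4% of cells with Lyve1 at the 4 stages, against 8.67%, 26.5%, 23.4% and 7.13% of cells without, and the intervals lay apart only at resolution (11.9% to 17.3%, against 6.28% to 8.05%). Msr1 and Cd36 were found together at plateau, where Msr1 had a UMI in 43.3% of cells with Cd36 (38.1% to 48.6%), against 20.05% of cells without (18.3% to 21.8%).

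Antibody and RNA were compared cell by cell within each library. Cells with a Cd163 UMI had 2071, 3023, 2525 and 1722 CD163 antibody UMIs per 10000 at baseline, peak, plateau and resolution, against 57.8, 102, 68.6 and 141 in cells without. The mean log2 ratio was 4.72 ± 0.75 (SD, n = 4 libraries, higher in 4 of 4). An exact two-sided permutation test then reaches the smallest p that 4 libraries allow, which is above 0.05. FrB had 597, 374, 342 and 459 per 10000 in cells with a Folr2 UMI, against 16.1, 24.8, 35.5 and 53.1 in cells without, a mean log2 ratio of 3.88 ± 0.96 (SD, n = 4, higher in 4 of 4).

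CD36 antibody was lower where Cd36 RNA was found. It had 53.2, 9.09, 8.13 and 11.4 per 10000 in cells with a Cd36 UMI, against 102, 15.5, 12.3 and 32.6 in cells without, a mean log2 ratio of -0.96 ± 0.40 (SD, n = 4, lower in 4 of 4). Within libraries the clusters showed the same. At baseline macrophage-like cells had 664 CPM of Cd36 RNA and 3.49 CD36 antibody UMIs per 10000, nonclassical monocyte-like cells 434 CPM and 15.4 per 10000, and cluster 4, led by Ldlrad3 with 8 of the 11 nonclassical monocyte markers, 25.8 CPM and 111 per 10000. Neutrophil-like cells there had 13.8 CPM and 59.2 per 10000, and fibroblast-like cluster 9 had 14.1 CPM and 132 per 10000. At resolution the values were 729 CPM and 7.16 per 10000 in macrophage-like cells, 421 CPM and 12.9 per 10000 in nonclassical monocyte-like cells, 37.8 CPM and 84.1 per 10000 in cluster 4, and 64.97 CPM and 71.9 per 10000 in cluster 9. Cluster 4 was 43.0% of the baseline cells.

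For CD204_Msr1 the difference was small. It had 1.57, 19.3, 6.06 and 11.9 per 10000 in cells with an Msr1 UMI, against 1.57, 15.8, 4.35 and 6.67 in cells without (mean log2 ratio 0.40 ± 0.35 SD, n = 4). For CD169_Siglec-1 the cells with a Siglec1 UMI numbered 20, 147, 24 and 11, and had 2.36, 31.2, 5.96 and 31.2 per 10000, against 2.41, 6.53, 3.54 and 5.20 in cells without. At baseline both antibodies had nearly the same level in cells with and without the RNA.

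**Figure D5:**
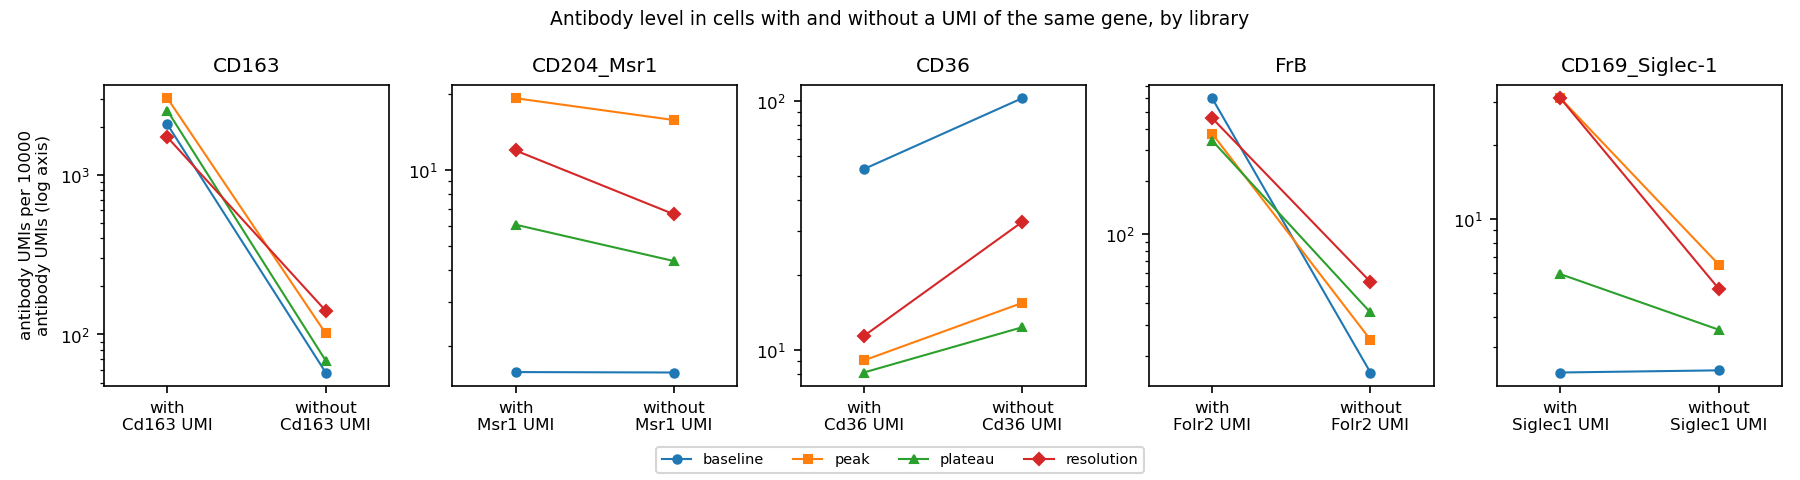
Antibody level (UMIs per 10000 antibody UMIs, log axis) in cells with and without a UMI of the same gene, with 1 line for each library. CD163 and FrB are higher in cells with the RNA in all 4 libraries, CD36 is lower in all 4, and CD204_Msr1 and CD169_Siglec-1 are level at baseline and higher at the later stages.

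The genes most like each receptor were taken from 33 sums of at least 50 cells of 1 library and cluster, among 7309 genes with a mean of at least 10 CPM, by Pearson r of log2(CPM + 1). The sums share libraries and depth, so r is a description. Lyve1 was closest to Vsig4, a complement receptor of resident macrophages (r = 0.92), Slc9a3r2, a scaffold protein (0.91), and Aqp1, a water channel (0.89). Folr2 was closest to Ltc4s (0.93) and Hpgds (0.88), which make the lipid mediators leukotriene C4 and prostaglandin D2, and to the chemokine gene Pf4 (0.87). Cd163 was closest to Slc9a3r2 (0.79), Strn4 (0.76) and Ap1b1 (0.75), below its r with Lyve1 (0.82). Cd36 was closest to Tpcn1 (0.86), an ion channel of endolysosomes, Sh3bp5 (0.84) and the transcription factor gene Cebpg (0.82).

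Msr1 was closest to Clec4d (0.88), a C-type lectin receptor, Nceh1 (0.86), a cholesterol ester hydrolase, and Ninj1 (0.86), a membrane protein of dying cells, and its r with Lyve1 was 0.07. Siglec1 was closest to Mknk1 (0.70), Braf (0.69) and Cmpk2 (0.68), the last an interferon response gene. Of these neighbours, Vsig4 (log2 fold change -7.36 ± 0.78, edgeR adjusted p = 0.0035) and Slc9a3r2 (-3.48 ± 0.43, 0.00444) were lower in CD45.1 cells, as were Aqp1, Ltc4s, Hpgds and Pf4. Clec4d was higher in CD45.1 cells (1.54 ± 0.31, edgeR adjusted p = 0.0194), as was Mknk1. Strn4, Ap1b1, Tpcn1, Sh3bp5, Cebpg, Nceh1, Ninj1, Braf and Cmpk2 gave no call. Among all genes tested 19.8% were called. The neighbours were picked from the same cells for their likeness to the members, so their directions are no separate evidence.

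Related genes were compared between the variants by lists, beside a median log2 fold change of -0.02 over all genes tested, of which 9.95% were called higher and 9.85% lower in CD45.1 cells. Of the 17 other scavenger receptors tested, 6 were lower and 2 higher in CD45.1 cells, with a median of -1.23. Vsig4 had the largest change. Cd14, the lipopolysaccharide co-receptor and the most abundant of the list, was higher in CD45.1 cells (1.44 ± 0.38, edgeR adjusted p = 0.042). Of the 13 genes of folate uptake and use, only Shmt1, which moves carbon units onto folate, was called (-1.93 ± 0.48, edgeR adjusted p = 0.0359), and the list median was -0.54. Ggh, which cleaves polyglutamated folate and had the highest level of the list, was not called (0.57 ± 0.16, 0.0538). 

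Of 10 genes of haemoglobin and haem handling, 1 was lower and 1 higher in CD45.1 cells, near the share among all genes, with a median of -0.26. Slc40a1, the iron exporter ferroportin, was lower (-2.53 ± 0.55, edgeR adjusted p = 0.0225), and Hp, which encodes the haptoglobin that CD163 binds, was higher (1.82 ± 0.38, 0.0209), named here after its value was seen. Fth1, the ferritin heavy chain, gave no call (0.16 ± 0.36, 0.776). Of 13 lipid handling genes, 6 were higher in CD45.1 cells and none was lower, with a median of 1.09, opposite in direction to Cd36 RNA. Thbs1, a ligand of CD36, had the largest change (3.00 ± 0.40, edgeR adjusted p = 0.00545), and Apoe, the most abundant, was not called (1.26 ± 0.45, 0.0952).

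Among 9 hyaluronan genes, 3 were lower and 1 was higher in CD45.1 cells, with a median of -1.34. The hyaluronan receptor Cd44 was higher (0.63 ± 0.15, edgeR adjusted p = 0.0311), and the synthase Has2 was not called (-1.83 ± 0.54, 0.0573). Among 5 genes of the list of siglecs and other lectins and ligands 2 were higher in CD45.1 cells and none was lower, with a median of 1.72. They were Siglece (1.72 ± 0.42, edgeR adjusted p = 0.0338), an inhibitory siglec, and Cd209a (2.03 ± 0.48, 0.0307), a C-type lectin and not a siglec, both named after their values were seen. Cd33 (-0.32 ± 0.43, edgeR adjusted p = 0.634) and Siglecg (2.03 ± 0.61, 0.0588) were not called.

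RefSeq promoters (GRCm38.p6, 250 bases before to 50 after the start) were available for Cd163, Marco, Cd36 and for 2 starts of Folr2. The 3 shown belong to genes that were lower together in CD45.1 cells, at chr6:124304401-124304700 (plus strand), chr5:17835847-17836146 (minus strand) and chr7:101857141-101857440 (minus strand), and capitals mark TGCTGA, the core of the sites that Maf factors bind. Both strands were searched for 4 motifs of myeloid factors, which overlapped in none of them.
Cd163 promoter: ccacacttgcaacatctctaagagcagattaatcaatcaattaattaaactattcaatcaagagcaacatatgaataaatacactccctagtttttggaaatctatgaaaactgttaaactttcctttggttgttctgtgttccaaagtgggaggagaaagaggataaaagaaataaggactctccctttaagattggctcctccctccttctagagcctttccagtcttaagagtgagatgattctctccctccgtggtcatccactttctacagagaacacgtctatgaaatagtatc
Cd36 promoter: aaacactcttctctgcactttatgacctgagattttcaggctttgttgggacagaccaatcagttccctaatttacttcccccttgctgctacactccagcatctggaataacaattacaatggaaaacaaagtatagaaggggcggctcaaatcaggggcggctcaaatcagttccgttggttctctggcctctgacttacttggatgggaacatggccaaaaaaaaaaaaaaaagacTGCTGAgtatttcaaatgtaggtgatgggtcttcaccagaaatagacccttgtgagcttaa
Folr2 promoter: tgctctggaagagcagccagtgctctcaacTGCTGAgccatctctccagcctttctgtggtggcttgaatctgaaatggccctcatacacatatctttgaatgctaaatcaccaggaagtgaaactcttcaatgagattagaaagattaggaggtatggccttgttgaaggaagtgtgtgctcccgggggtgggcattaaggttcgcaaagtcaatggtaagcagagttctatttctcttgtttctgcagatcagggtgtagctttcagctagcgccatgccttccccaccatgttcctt
The Maf core occurred once each in the Cd36 and Folr2 promoters and in none of the Cd163 promoter, against 19.5% of 32851 promoters. The PU box GAGGAA (28.3% of promoters), the AP-1 site TGACTCA (5.20%) and the DR1 site of nuclear receptors such as PPARs (0.0396%) were absent from all 3. The second Folr2 start held 1 Maf core and 1 AP-1 site, and Msr1, Lyve1 and Siglec1 had no entry. A match is a description of these letters and not a bound site.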

How the data were processed

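The 4 CITE-seq libraries were deposited by the authors as raw UMI counts per gene or antibody and cell barcode, made with Cell Ranger 6.1.2 per the file headers, with build mm10 per the submitters' processing notes, which also list Seurat 4.4.0 without a step. No source used here gives a further filter on cells. There were 0 columns of other samples.

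Barcodes with fewer than 300 genes or more than 10% mitochondrial UMIs were removed. Scrublet called 5, 0, 3 and 0 doublets, too few to use, so none were removed, and leaving out the 6% of cells with the highest score was an alternative. Cells were assigned to CD45.1 or CD45.2 at a log2 ratio of the 2 antibodies of at least 1 or at most -1. UMIs were summed per library and variant and tested with edgeR 4.0.16 (R 4.3.3) by the quasi-likelihood test with TMM scaling, the library as block, and Benjamini-Hochberg adjustment over all features tested, with calls at 0.05. The library is the block because both variants come from the same library. Standard errors were derived from the fold change and the F statistic. The p-values set the difference between the variants against its variation from library to library, and the libraries are also the stages. They do not measure a spread between mice. DESeq2 1.42.0 was an alternative. Antibody levels per 10000 use all 92 antibodies as the total. Between stages, with 1 library each, there was no test.

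Clusters came from scanpy 1.11.5 and igraph 0.11.9 (Python 3.11.15, scipy 1.17.1), with 2000 variable genes without the 7 members, 30 principal components, 15 neighbours and Leiden resolution 0.8, and were named only from marker lists. Names rebuilt in this way may differ from those of the study. The panel names no isotype control, so CD3 and CD8a antibodies stand beside the levels, a choice made after the data were seen.

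The members and gene lists were chosen with earlier results of these data known. The text names all 7 members, the 3 genes most like each, and of each list the most abundant gene and the one with the largest fold change. Scripts were tested on simulated data.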

Additional observations from a re-analysis of the deposited data

Results flagged for a closer look

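The difference between the variants had opposite signs at different stages for Msr1 RNA, with log2 ratios of CD45.1 over CD45.2 cells of -0.52 at baseline, 0.95 at peak, 0.38 at plateau and -0.63 at resolution. Each is 1 library, and the difference between stages was not tested.

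Between stages, some members went opposite ways in CD45.1 and in CD45.2 cells, and none of these differences was tested. For resolution over baseline, the log2 ratios in CD45.1 and in CD45.2 cells were 2.80 and -0.66 for Folr2 RNA and 2.45 and -0.52 for Lyve1 RNA. For antibodies in the same contrast they were 1.94 and -0.085 for CD163, 2.04 and -0.31 for FrB, and 1.96 and -0.85 for CD169_Siglec-1. The median antibody of the panel stood at 1.54 in CD45.1 cells and 0.53 in CD45.2 cells in that contrast. Lyve1 RNA for plateau over peak gave 1.07 in CD45.1 cells and -0.18 in CD45.2 cells, with 39 and 40 UMIs in CD45.1 cells at plateau and peak. CD169_Siglec-1 antibody for resolution over plateau gave 0.67 in CD45.1 cells and -0.38 in CD45.2 cells, where the panel median was 0.90 and 0.98. FrB antibody for peak over baseline gave 0.36 in CD45.1 cells and -0.39 in CD45.2 cells, where the panel median was 0.90 and 0.38. In these contrasts both antibodies thus lay below the panel median in either variant.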

How the results depend on the processing

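The number of genes called between CD45.1 and CD45.2 cells was 2276, and was 513 with no replicate block, 305 in macrophage-like cells, and 936 (without peak) to 1935 with 1 library left out, with 1471 without baseline. Of antibodies 15 were called, 33 by DESeq2, 6 with no replicate block, 1 in macrophage-like cells, and 5 (without plateau) to 13 with 1 library left out. The cause was not tested. With no replicate block the log2 fold changes that lost their call were -2.28 for Cd163, -1.44 for Cd36 and -4.36 for Lyve1 RNA, and -1.61 for CD169_Siglec-1, -0.94 for CD204_Msr1 and 2.94 for CD36 antibody. In macrophage-like cells those without a call were -0.57 for Cd36 RNA, and -2.53 for CD163, -0.26 for CD169_Siglec-1, -0.022 for CD204_Msr1, -0.95 for FrB and -0.059, of opposite sign, for CD36 antibody. That setting has fewer cells and 3 libraries. Leaving out 1 library gave -1.84 to -1.25 for CD169_Siglec-1, -1.18 to -0.84 for CD204_Msr1 and 1.51 to 2.45 for CD36 antibody, each with a call lost. It gave -4.13 to -2.75 for Cd163, -1.68 to -1.26 for Cd36, -4.68 to -3.59 for Folr2, -6.67 to -5.20 for Lyve1 and -0.01 to 0.55 for Msr1 RNA, and -3.95 to -3.48 for CD163 and -3.60 to -3.15 for FrB antibody. Between stages, values past 2-fold fell to 10 in macrophage-like cells, a setting added after the data were seen, against 16 of 24 over all cells. The share of all genes past 2-fold was not computed within macrophage-like cells, so the 10 has no background beside it. Of those 16, the log2 ratio turned there for Cd163 to 1.25 for peak over baseline, -0.37 for resolution over plateau and -1.17 for resolution over baseline, and for Folr2 to -0.19 for plateau over peak and -0.61 for resolution over plateau. Of changes under 2-fold, Lyve1 turned to -0.66 for plateau over peak, and Lyve1 to -1.20 and Folr2 to -1.16 for resolution over baseline. CD163 antibody for resolution over plateau was -0.74 as a ratio to the CD3 and CD8a antibodies. CD169_Siglec-1 antibody for resolution over baseline was -0.87 both as mean UMIs per cell and as that ratio. The planned ratio to isotype controls was not run, since the panel names none. Siglec1 had at most 158 UMIs in a library and variant.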
